A study of Mus musculus with 8 samples.

Results

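Of 114956 accessible sites found in 4 cell populations of the mouse hair follicle, 4132 (3.59%) were open in a resting-follicle population and in the suprabasal progenitors of the growing follicle, but had no peak in the basal progenitors. A site is a run of peaks that overlap by at least 1 bp across the 4 deposited peak lists, with the mitochondrial and Y chromosomes left out. A member is a site with a peak in the suprabasal list, a peak in the bulge list or the hair germ list or both, and no peak in the basal list. The members were thus chosen by the presence and absence of called peaks, and both, with the scores of the peaks, are given as a description with no test.

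Open chromatin was mapped by ATAC-seq, a method that cuts and tags exposed DNA with a transposase, on cells sorted from mouse back skin. The bulge (BU) population holds the resting stem cells, and was sorted from postnatal day 55 Lgr5-eGFP-ires-CreER mice as positive for GFP, CD34 and the integrins α6 and β1. The hair germ (HG) population, the primed cells beneath the bulge, came from mice of the same strain and age and was sorted alike but without CD34. Basal transient amplifying cells (bTAC) came from postnatal day 30 Lgr5-eGFP-ires-CreER mice and were GFP-negative, CD34-negative, SCA1-negative, P-cadherin-positive and high in integrin β1. Suprabasal transient amplifying cells (sbTAC) came from postnatal day 30 K14-H2BGFP mice, in which the keratin 14 promoter drives a GFP-tagged histone, and were GFP-low and negative for CD34 and integrin α6. Each population has 2 samples of mixed sex per the labels, and the authors deposited 1 peak list per population that pools both, so there is no spread between replicates and no p-value. Age, strain and sort differ along with the populations, and their shares in a difference between lists cannot be told apart. The pooled libraries held 24065469 (BU), 11053351 (HG), 30824845 (bTAC) and 47852893 (sbTAC) fragments, and 62320, 56536, 75637 and 72137 of their peaks were used.

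In the resting phase (telogen), the bulge keeps quiescent stem cells and the hair germ holds the cells that answer first to growth signals. During growth (anagen), basal transient amplifying cells line the basement membrane around the dermal papilla, and suprabasal ones lie above them and go on to form the hair shaft and the inner root sheath. Open chromatin marks promoters and enhancers, and an accessible site need not mean that a nearby gene is active.

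The members at gene starts are the ones whose sequence could be read, so the 250 bases upstream of 6 of these starts are shown, taken from RefSeq (GRCm38.p6, the same assembly as mm10) and written 5′ to 3′ in the direction of the gene. Acer1, Prr5 and Ahcyl2 are among the strongest starts by the ranking used for naming. Krtdap, Alox12e and Krt73 are skin and follicle genes and were chosen after their values were seen. Capitals mark matches on either strand to TGANTCA (the AP-1 motif), CCNCNCCC (a KLF-type GC-rich motif) or AGATAA (known from GATA factors).
Acer1, chr17:56982127-56982376, minus strand: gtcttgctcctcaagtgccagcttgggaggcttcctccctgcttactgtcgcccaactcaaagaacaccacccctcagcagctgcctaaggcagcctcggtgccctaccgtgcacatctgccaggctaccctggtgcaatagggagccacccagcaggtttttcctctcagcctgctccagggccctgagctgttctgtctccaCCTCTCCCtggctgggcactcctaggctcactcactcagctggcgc
Krtdap, chr7:30787655-30787904, plus strand: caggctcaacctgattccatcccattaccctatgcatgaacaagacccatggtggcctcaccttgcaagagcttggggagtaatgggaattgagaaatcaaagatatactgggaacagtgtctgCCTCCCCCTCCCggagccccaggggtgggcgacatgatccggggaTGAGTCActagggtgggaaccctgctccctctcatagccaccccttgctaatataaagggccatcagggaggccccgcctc
Alox12e, chr11:70322531-70322780, minus strand: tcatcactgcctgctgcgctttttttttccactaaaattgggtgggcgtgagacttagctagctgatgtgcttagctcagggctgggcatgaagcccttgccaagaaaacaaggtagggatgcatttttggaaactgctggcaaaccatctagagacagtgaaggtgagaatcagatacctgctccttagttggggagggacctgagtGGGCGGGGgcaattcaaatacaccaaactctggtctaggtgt
Krt73, chr15:101802361-101802610, minus strand: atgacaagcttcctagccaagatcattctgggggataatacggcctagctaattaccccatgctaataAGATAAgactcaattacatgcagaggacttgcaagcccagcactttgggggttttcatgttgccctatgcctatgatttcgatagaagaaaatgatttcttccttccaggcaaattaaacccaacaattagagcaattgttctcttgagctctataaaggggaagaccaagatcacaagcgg
Prr5, chr15:84662956-84663205, plus strand: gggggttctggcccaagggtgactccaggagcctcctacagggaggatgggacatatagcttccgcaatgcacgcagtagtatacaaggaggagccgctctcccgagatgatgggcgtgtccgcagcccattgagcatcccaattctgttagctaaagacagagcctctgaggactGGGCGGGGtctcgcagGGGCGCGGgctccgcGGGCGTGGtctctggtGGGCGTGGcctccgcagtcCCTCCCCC
Ahcyl2, chr6:29859346-29859595, plus strand: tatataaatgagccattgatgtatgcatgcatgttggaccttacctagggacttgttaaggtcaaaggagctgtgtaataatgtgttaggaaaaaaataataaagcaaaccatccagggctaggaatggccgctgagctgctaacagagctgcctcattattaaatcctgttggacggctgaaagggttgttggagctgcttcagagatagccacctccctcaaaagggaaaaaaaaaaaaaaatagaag

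The 6 sequences differ in base composition and in the motifs they hold. Prr5 had 64.0% G and C and 15 CpG pairs, Acer1 61.6% and 4, Krtdap 56.4% and 4, Alox12e 49.6% and 3, Krt73 42.4% and 3, and Ahcyl2 41.2% and 2. An AP-1 match was found upstream of Krtdap, and the KLF-type matches there overlap in 1 run. Upstream of Krt73 there was 1 GATA match and no KLF-type match. None of the 3 marked motifs was found in the Ahcyl2 window.

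The labelled populations were checked over whole marker lists, counting the places with a peak at all genes of a list together. Bulge genes (20) had 352 in BU, 279 in HG, 293 in bTAC and 251 in sbTAC, and 16 of the 20 had more in BU than in sbTAC and 4 had fewer. Matrix genes (24) had 177, 163, 273 and 330, inner root sheath genes (12) 41, 39, 93 and 107, and hair shaft genes (19) 53, 69, 96 and 126. The hair germ list (14 genes) did not follow its label, with 186 in BU, 175 in HG, 253 in bTAC and 247 in sbTAC. These counts are not adjusted for the unequal numbers of peaks in the lists. As single genes, picked after their values were seen, sites near Postn, a bulge gene, had peaks at 10 places in BU, 7 in HG, 3 in bTAC and 0 in sbTAC. Near Lef1, a WNT effector gene of the hair germ and matrix, there were 5, 10, 18 and 27, and near Padi3, a gene of the inner root sheath and hair shaft, 0, 0, 6 and 5. Cd34, the surface marker used in the sorts, had peaks in every list, 9 in BU, 7 in HG, 6 in bTAC and 6 in sbTAC. Other genes went against their lists: Nfia, on the bulge list, had 21, 23, 29 and 31, and Wnt10b, on the matrix list, 4, 3, 2 and 2.

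Before the members are described in detail, 1 difference between the lists goes against the labels. The bTAC list had peaks at 4 of 4 Y-linked genes (Kdm5d, Uty, Ddx3y and Eif2s3y) and 0 at Xist, the RNA gene that silences an X chromosome in female cells. In the sbTAC list it was the other way round, with peaks at 0 of those 4 genes and 3 at Xist. BU and HG had peaks at all 4 Y-linked genes and 2 and 1 peaks at Xist. Over the whole Y chromosome the lists had 9 (BU), 7 (HG), 12 (bTAC) and 13 (sbTAC) peaks, so the sbTAC list did hold Y peaks, all outside these 4 genes. Sex is labelled as mixed in all samples, and in these lists sex-linked peaks differ along with bTAC and sbTAC. Of the members, 95 lay on the X chromosome, and leaving that chromosome out gave 4037 members. On the autosomes, the sex of the pooled mice and the cell population cannot be told apart.

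Some members lay at Xist and at another X-linked RNA gene. Firre, a long noncoding RNA gene on the X chromosome (chrX:50563120-50635321), held 8 members and 5 further sites found only in the sbTAC list. Within and up to 1 kb around Firre there were 9 BU peaks, 6 HG peaks, 15 sbTAC peaks and 1 bTAC peak, and the bTAC peak lay at the gene's start, in a site shared by all lists. A run of 7 of these members spanned 32.6 kb with 0 bTAC peaks inside, the largest run of members anywhere, where members no more than 10 kb apart form a run. The strongest Firre member by sbTAC coverage, at chrX:50611770-50612546, reached a coverage of 34 fragments in BU, 22 in HG and 81 in sbTAC. At Xist (chrX:103460373-103483233), 1 member held BU and sbTAC peaks with fold enrichments of 11.1 and 5.0, and another held HG and sbTAC peaks with 4.1 and 5.5. Fold enrichment here and below is the authors' value for a peak over its local background, and coverage is the number of fragments over its summit.

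Among the 4132 members, 2282 (55.2%, 95% Wilson interval 53.7 to 56.7) held peaks of both telogen lists, 1180 paired BU with sbTAC only and 670 paired HG with sbTAC only. The opposite pattern, a telogen peak and a bTAC peak with no sbTAC peak, was found at 9845 sites (8.56%), here called mirrored sites, or 2.38 for each member. Of 40011 sites with telogen and sbTAC peaks, 10.3% lacked a bTAC peak, and of 45724 sites with telogen and bTAC peaks, 21.5% lacked an sbTAC peak. Mirrored sites held both telogen peaks in 65.5% of cases. Members were 225 to 3214 bp long with a median of 640 bp, against 804 bp for mirrored sites, 370 bp for sites found only in sbTAC and 1283.5 bp for sites of all 4 lists. All intervals cover counting over the sites of pooled lists only, and not the spread between mice.

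Members were mostly made of peaks from the lower ranks of each list. Their median fold enrichment was 5.58 in BU, 5.75 in HG and 3.73 in sbTAC, where all peaks of those lists had medians of 7.48, 7.14 and 4.79. Low medians were not particular to members: telogen-only sites had 5.55 in BU and 5.44 in HG, and sbTAC-only sites 3.56 in sbTAC. Mirrored sites had 6.98 in BU and 6.56 in HG. The middle 50% of members lay between 4.06 and 8.37 in BU, 4.23 and 7.66 in HG and 2.99 and 4.90 in sbTAC. In every list that held them, 396 members (9.58%) ranked above the 50th percentile of fold enrichment, compared with 19.0% of mirrored sites. The same share was 28.5% over all sites, and 38.2% over sites with telogen and sbTAC peaks, with or without bTAC. The share over all sites is not on a like footing, since it includes sites of a single list, where only that list's rank counts. BU peaks of members that also had an HG peak ranked higher, with a median fold of 6.52, than those of members without one, with 4.44.

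The share of telogen and sbTAC sites that lacked a bTAC peak was lower at higher ranks of sbTAC fold enrichment. It was 33.3% (31.2 to 35.4) in the lowest 10% of ranks and 0.833% (0.634 to 1.09) in the highest 10%, where 51 of 6125 sites were members. Mirrored sites went from 42.5% in the lowest 10% of bTAC ranks to 8.41% in the highest. In each of the 10 bands the share was lower for members than for mirrored sites, although the ranks come from lists of unequal depth.

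**Figure D1:**
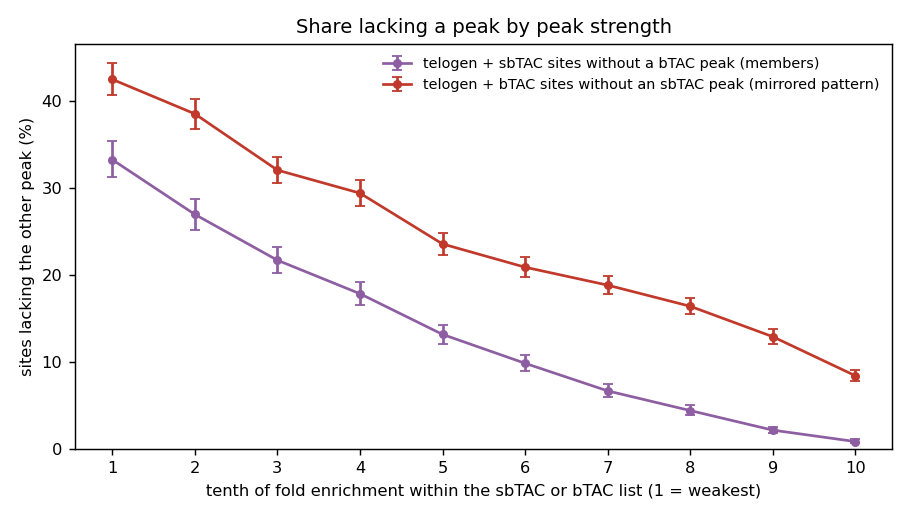
Percent of sites lacking a bTAC peak (members) or an sbTAC peak (mirrored pattern), in 10 bands of fold enrichment rank within the sbTAC or bTAC list; points are shares and bars are 95% Wilson intervals. The member share goes down from 33.3% to 0.833% and the mirrored share from 42.5% to 8.41%.

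Absence from a list also depends on depth, so the coverage of each peak was multiplied by the bTAC fragment total over that of its own library and set beside 21 fragments, the 10th percentile of coverage among bTAC peaks. The median scaled coverage of members was 46.1 in BU, 53.0 in HG and 23.2 in sbTAC. At or above 21 fragments were 90.0% of the BU peaks, 97.0% of the HG peaks and 57.6% of the sbTAC peaks. All of a member's peaks met that level at 2226 members (1.94% of all sites). The level is on coverage and not on fold enrichment, so a member with low folds can meet it.

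Just inside the rule, 10 members had a bTAC peak within 100 bp, at a median of 67 bp. Just outside it were 13 sites whose bTAC peak overlapped the other peaks by 100 bp or less, at a median of 66 bp, and 13 whose strongest bTAC peak had a −log10 q-value under 2, with a median bTAC fold of 2.42. Those outside the rule are few against the 35879 sites with telogen, bTAC and sbTAC peaks, and those inside it against the 4132 members.

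Position relative to genes was not used in choosing the members. Within 1 kb of a gene start lay 288 members (6.97%, 6.23 to 7.79), against 3.83% (3.47 to 4.23) of mirrored sites, 3.84% of sbTAC-only sites, 2.71% of telogen-only sites and 38.3% of sites of all 4 lists. Between 1 and 10 kb from a start lay 25.0% of members and 15.4% of mirrored sites, and more than 100 kb away lay 14.8% and 26.2%. Inside a protein-coding gene span were 55.4% of members and 50.0% of mirrored sites. Exons, introns and untranslated regions could not be separated with the annotation used.

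**Figure D2:**
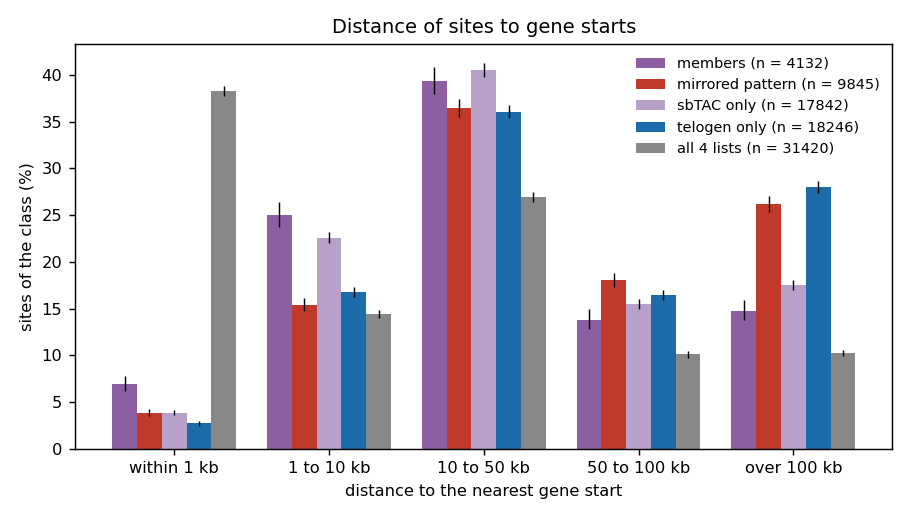
Percent of sites of each class in 5 ranges of distance to the nearest gene start, with 95% Wilson intervals as bars. Members reach 6.97% within 1 kb, above the mirrored, sbTAC-only and telogen-only sites and far below the 38.3% of sites shared by all 4 lists. The share over all sites, not drawn, is 13.3%.

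For members, the nearest bTAC peak was at a median of 4466.5 bp, and 2223 members (53.8%, 52.3 to 55.3) had one within 5 kb, against 46.2% of sbTAC-only sites and 42.7% of telogen-only sites. Within 500 bp there were 177 such members (4.28%). The share within 5 kb was 57.1% (54.3 to 59.9) for members of BU and sbTAC and 44.5% (40.8 to 48.3) for members of HG and sbTAC. For mirrored sites, the nearest sbTAC peak was farther, at a median of 8518 bp. Another member lay within 10 kb of 481 members (11.6%), and 18 runs held 3 or more. Members were spread over all chromosomes used, from 3.20% of the sites of chromosome 17 to 4.36% of those of chromosome 7.

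Gene starts inside members were examined next, since their sequences could be read. The promoter table places 147 starts in 137 members, and these differ in composition from starts that are open in every list. The 250 bases upstream had a median of 55.6% G and C and 8 CpG pairs in members, 50.4% and 5 in mirrored sites, 54.4% and 6 in sbTAC-only sites, 61.2% and 17 in sites of all 4 lists and 47.2% and 3 at starts in no site. Starts inside members are thus poorer in CpG than the starts open in all 4 lists.

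Matches to 16 motifs were counted on both strands of these upstream windows. The AP-1 motif was found at 10.9% of starts in members (6.81 to 16.9), 13.0% in mirrored sites, 4.35% in sites of all 4 lists and 6.78% of all 32619 starts. The KLF-type motif was found at 59.2% (51.1 to 66.8), 44.5%, 65.4% and 46.2%. This motif is GC-rich, and the median G and C content stands in the same order over these classes. NFAT letters (GGAAAA) were found at 14.3% of starts in members (9.54 to 20.9) and 24.4% in mirrored sites. In sites of all 4 lists the NFAT share was 17.3%, and over all starts 20.5%. For CEBP letters (TTGCNNAA) these shares were 4.76% (2.33 to 9.50), 11.0%, 6.89% and 9.62%. For GATA letters they were 12.2% (7.89 to 18.5), 13.0%, 5.03% and 10.0%. The shares in members rest on 21, 7 and 18 starts. Whether base composition plays a part in these shares was not tested. A match describes the letters in the window and not binding.

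The start of Acer1 was the strongest of these. Acer1 encodes an alkaline ceramidase of the epidermis, an enzyme that splits ceramide. Its member (chr17:56981890-56982532) contains the start of the gene, had fold enrichments of 14.8 in BU, 13.8 in HG and 10.6 in sbTAC, and ranked at or above the 93.3 percentile in each of the 3 lists. Scaled to the bTAC depth, coverage was 129, 131 and 126 fragments, and the nearest bTAC peak was 6497 bp away. The sequence shown above for Acer1 lies wholly inside this member, and other sites around the gene had peaks in bTAC.

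Krtdap, which encodes a keratinocyte differentiation-associated protein, held 3 members among 6 sites, and 1 of its 6 sites had a bTAC peak. The member over its start (chr7:30787478-30787962) had folds of 3.56 in BU, 3.59 in HG and 3.04 in sbTAC. A second, 3758 bp past the gene, had 8.17, 6.76 and 3.62, and the third, 12983 bp past it, had 10.8, 9.97 and 4.41. The second did not reach 21 scaled fragments in sbTAC, with 16.7, and the other 2 did. All lists, bTAC included, shared a site upstream of the start, 1343 bp from the first member.

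**Figure D3:**
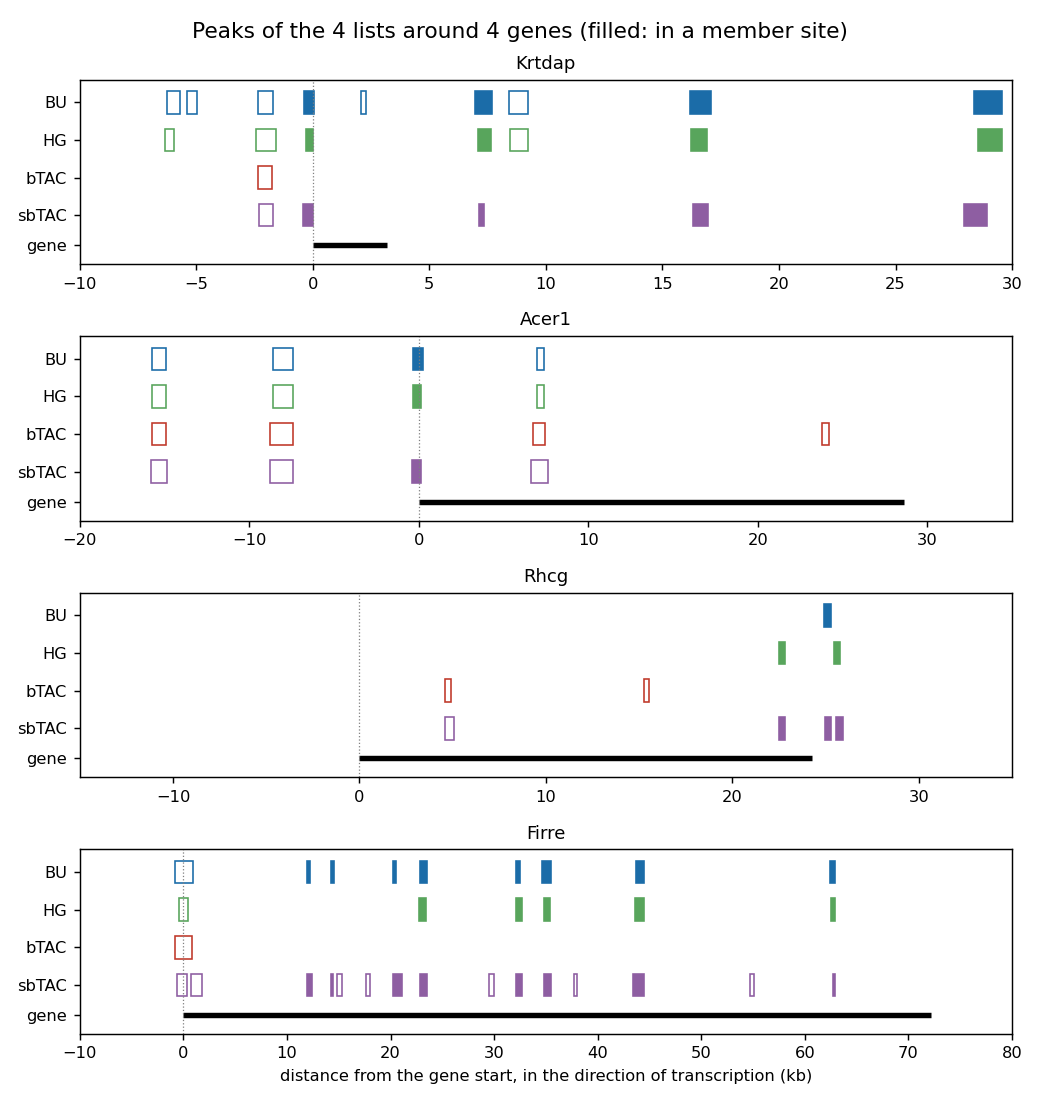
Peaks of the BU, HG, bTAC and sbTAC lists around the starts of Krtdap, Acer1, Rhcg and Firre; each box spans 1 peak, filled boxes belong to members, the black bar is the gene and the axis is the distance from the gene start in kb. By the rule for members, the bTAC row is empty at every filled box. Krtdap and Firre have 1 bTAC peak each, and Acer1 and Rhcg have more.

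A further 4 starts at skin and follicle genes were picked by hand, after their values were seen, from the 176 genes with a member at a start. No count of such genes among the 176 was made, so they stand as examples only. Alox12e, an epidermal lipoxygenase gene, had a member over its start with folds of 4.82 in BU, 5.62 in HG and 5.08 in sbTAC, 32.9 kb from any bTAC peak. At Cyp4f39, a cytochrome P450 gene of skin lipid synthesis, the start lay in a member with 5.07 in BU and 3.78 in sbTAC. That member had no HG peak, and the nearest bTAC peak was 1105 bp away. Degs2, which encodes an enzyme that hydroxylates ceramide precursors, had 4.12 in HG and 3.43 in sbTAC, and its sbTAC coverage scaled to 17.4 fragments, under the level of 21. At Krt73, a keratin gene of the inner root sheath, a member of HG and sbTAC covered the start, with folds of 4.60 and 5.09 and scaled coverage of 27.9 and 51.5. No BU peak was present there, and the nearest bTAC peak was 21.7 kb away.

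In all, a member overlapped 187 start windows (250 bases before to 50 after a start) of 176 genes, and 94 genes had one that met the depth-scaled level. The 12 strongest of these by lowest rank were Acer1, Gm52042, 1700013F07Rik, 2310005A03Rik, Ahcyl2, Prr5, Efcab5, Tubb3, Jazf1, Gm19303, 1110028F18Rik and Elob. Prr5, which encodes a subunit of the mTORC2 kinase complex, had 9.41 in BU, 7.53 in HG and 5.88 in sbTAC. Ahcyl2, an AHCY-like enzyme gene, had 7.97, 9.05 and 7.85. At Tubb3, the neuronal β-tubulin gene, folds were 7.66, 9.30 and 5.35, and the window upstream had 21 CpG pairs. Of the 12, 5 carry only the name of a gene model. At Elob and 1700013F07Rik, bTAC peaks lay 320 and 291 bp from the member.

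**Figure D4:**
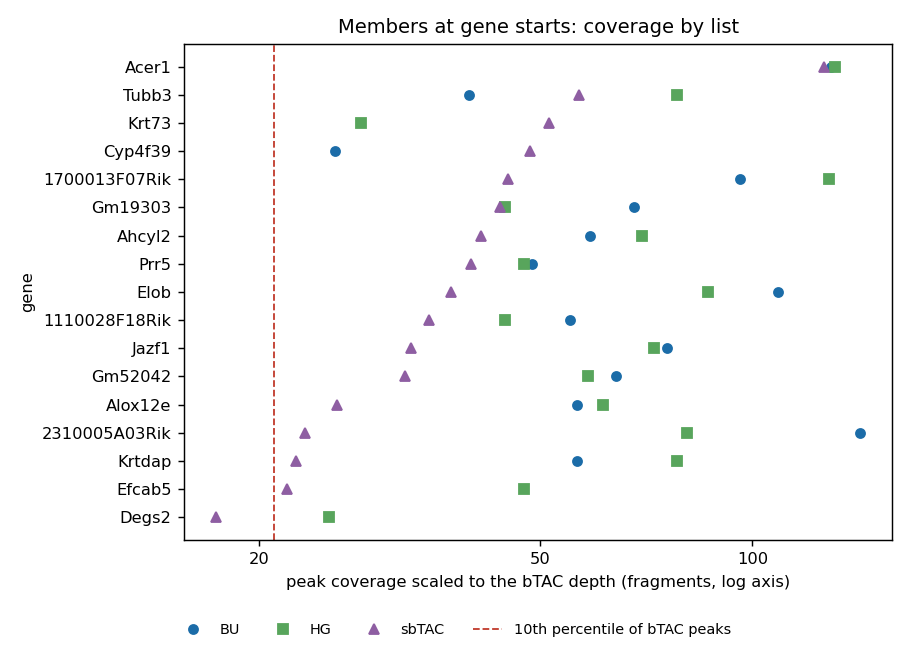
Peak coverage scaled to the bTAC depth, in fragments on a log axis, for members at the starts of 17 genes; symbols are the BU, HG and sbTAC lists and the dashed line is 21 fragments, the 10th percentile of bTAC peaks. Acer1 lies highest in sbTAC at 126 fragments and Degs2 lies under the line at 17.4.

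Among all members, at starts or not, the 12 with the highest ranks in every list holding them were named. The first 2 were very short and very high. A 235 bp member inside Chl1, a neural cell adhesion gene (chr6:103649054-103649288), had a coverage of 788 fragments in BU and 1715 in sbTAC, with folds of 34.6 and 36.0, and no HG peak. The other, a 231 bp member 10068 bp from Myl12b (chr17:70963665-70963895), had 189 and 418 fragments and no HG peak. Both are near the shortest length found among members, and the depth-scaled BU and sbTAC coverage was similar at each, 1009 and 1105 at Chl1 and 242 and 269 near Myl12b.

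Others of the 12 were at or near Xkr6, Acer1, Klk4, Fabp5, Stk32c, Ptpn3, Lrrfip2, D16Ertd472e and Pik3r1. Inside Xkr6 the nearest bTAC peak was 72.9 kb away, and folds were 20.8 in BU, 17.5 in HG and 10.8 in sbTAC. The member nearest to Fabp5, the epidermal fatty acid binding protein gene, lay 64.4 kb from it and had 14.2, 13.4 and 9.11. One 8890 bp from Klk4, a kallikrein protease gene, had 18.1, 15.3 and 9.26. That near Pik3r1 was over 100 kb from the gene and counts for no gene below.

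For counts by gene, each site was given to the protein-coding gene whose span was nearest, up to 100 kb away. Members assigned in this way numbered 3820 (3.71% of assigned sites), at 2838 of 16940 genes with a site, and 312 members had no gene within 100 kb. Of those genes, 2172 held 1 member, 471 held 2 and 195 held 3 or more. Long genes collect more sites: the median span was 151 kb for genes with 3 or more members, 42.5 kb for genes with any and 22.4 kb for genes with a site. A gene with 6 or more sites had a median member share of 0% and a 95th percentile of 16.7%.

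Tenm4, a teneurin gene spanning 740 kb, held the most members, 10 of 101 sites. Ntrk2, which encodes the neurotrophin receptor TrkB, held 8 of 29. Its sites had peaks at 21 places in BU, 15 in HG, 10 in bTAC and 19 in sbTAC, and all 8 members lay inside the gene. The strongest, at chr13:58855968-58856888, had folds of 12.8 in BU, 10.4 in HG and 9.31 in sbTAC, 21161 bp from a bTAC peak. Of the 8, 4 met the depth-scaled level. Aff1, a subunit gene of the super elongation complex, also held 8, of 34 sites.

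The next genes by count were Snd1 and Bnc2 with 7 members each, then Ldlrad3, Rapgef5, Gmds, Arhgef28, Pdzd2, Slit3 and Foxp1 with 6 each, then Cacna1a, Pkp1 and Tmem45a with 5 each. Their shares of all sites ran from 6.52% at Foxp1, a forkhead factor gene, to 35.7% at Cacna1a, a calcium channel gene. At Slit3, a guidance ligand gene, 11 mirrored sites outnumbered the 6 members, and at Bnc2, a zinc finger gene, there were 10 mirrored sites and 7 members. Mirrored sites also outnumbered members over all assigned sites, at 8.15% against 3.71%.

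Pkp1, the gene of the desmosome plaque protein plakophilin 1, held 5 members among 19 sites in a span of 47.8 kb, and all 5 met the depth-scaled level. BU had peaks at 19 of the 19, HG at 15, bTAC at 12 and sbTAC at 14. The 2 with the highest BU folds lay outside the gene span, 5359 and 14353 bp from it. The nearer had folds of 10.6 in BU, 10.4 in HG and 3.71 in sbTAC, and the farther 12.4, 10.4 and 4.21. A member inside the gene reached 116, 62 and 213 fragments in BU, HG and sbTAC. Tmem45a, a transmembrane protein gene, had bTAC peaks at 5 of 22 sites, against 17 in BU, 16 in HG and 13 in sbTAC. By the rule each member counts for sbTAC and for BU or HG, and never for bTAC. Such counts by list, here and at Ntrk2 and Krtdap, are thus partly set in advance.

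Of 5527 genes with 6 or more sites, 9 had a member share above 33.3% and 21 had exactly that share. Krtdap and Slc25a30 had the highest share of members, 3 of 6 each. Chrnb4 and Pdia4 followed with 3 of 7, Itgav with 4 of 10, En1 with 3 of 8, Ralgds and Rhcg with 4 of 11, Cacna1a with 5 of 14 and Fgf1 with 3 of 9. Fgf1 is 1 of the 21 and was named because ties went to the gene with more sites and then by name, and 1 other of the 21 also had 9 sites. Itgav encodes the integrin αv chain, and its 4 members lay inside the gene with peaks in BU, HG and sbTAC. One of these was 44 bp from a bTAC peak. Rhcg, an ammonium transporter gene, had 3 members in 3.44 kb around the end of the gene, with 0 bTAC peaks among them, and each held BU or HG but not both. At Slc25a30, Chrnb4 and En1, 0 members met the depth-scaled level.

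Lists of genes known from skin, the follicle and its signalling were described by their share of members, next to 3.71% over all assigned sites for members and 8.15% for mirrored sites. The lists were chosen with earlier results of these data known. The highest share was at genes of differentiation in the epidermis between follicles, with 14 members among 170 sites (8.24%, exact interval 4.58 to 13.4) and 7 mirrored sites (4.12%, 1.67 to 8.30). The median member share over its genes was 0%, since members lay at 9 of its 19 genes with a site. This list was singled out of 21 after the shares were seen. It was 2.35% (4 of 170) where the peaks present had to be strong, against 1.26% over all assigned sites under that setting.

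The 14 members of that list were at Cebpb (4), Krtdap (3) and, with 1 each, Cebpa, Grhl3, Klf4, Krt1, Krt10, Lor and Prdm1. Cebpb and Cebpa encode C/EBP factors, Klf4, Grhl3 and Prdm1 encode further transcription factors, Krt1 and Krt10 the keratins of differentiating epidermal cells and Lor a protein of the cornified envelope. Krt1 had a single site, a member inside the gene at chr15:101845969-101846400 with folds of 6.28 in BU, 5.47 in HG and 5.33 in sbTAC. Inside Prdm1 a member had 6.76, 11.3 and 7.93. Near Lor folds were 5.55, 11.1 and 2.99. The member near Krt10 had 3.38 in BU and 2.56 in sbTAC. Of the 14, 10 met the depth-scaled level, and those near Grhl3, Krt10 and Lor and 1 at Krtdap did not.

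Cebpb held its 4 members among 29 sites. The first, 3237 bp from the gene (chr2:167685271-167685678), had folds of 2.90 in BU, 2.64 in HG and 2.46 in sbTAC. Another 4862 bp away on its other side had 3.54 in BU and 3.14 in sbTAC. The remaining 2, at 58.5 and 78.9 kb, held HG and sbTAC peaks with folds of 4.60 and 3.36, and 3.20 and 4.55. The farther reached 296 fragments in sbTAC but was 969 bp from a bTAC peak.

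**Figure D5:**
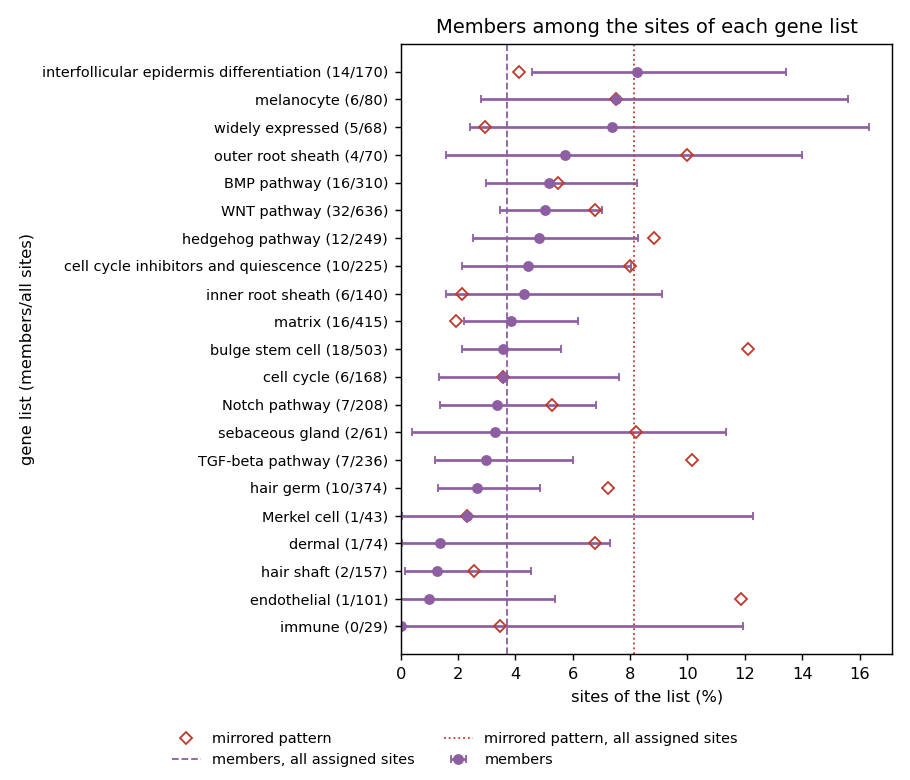
Percent of the sites at each of 21 gene lists that are members (points, with exact 95% intervals) or mirrored sites (diamonds); dashed and dotted lines are the shares over all assigned sites, 3.71% and 8.15%. Genes of epidermal differentiation lie highest for members at 8.24%, and bulge genes at 3.58% for members and 12.1% for mirrored sites.

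Genes of the follicle's own populations lay nearer to the share over all sites. Bulge stem cell genes had 18 members of 503 sites (3.58%) beside 12.1% mirrored sites, hair germ genes 10 of 374 (2.67%) beside 7.22%, and matrix genes 16 of 415 (3.86%) beside 1.93%. Inner root sheath genes had 6 of 140 (4.29%), outer root sheath genes 4 of 70 (5.71%) and hair shaft genes 2 of 157 (1.27%). Gata3, a factor gene of the inner root sheath that is also on the matrix list, held 4 of the 6 inner root sheath members, 3 of them with BU and sbTAC peaks only. With depth scaling or equal numbers of peaks Gata3 held 2, and with the stricter peaks (a −log10 q-value of 10 or more) or strong peaks it held 0. Of the 4 Gata3 members, the member 12104 bp from the gene had folds of 3.86 in BU and 9.25 in sbTAC. Its BU peak had a coverage of 15 fragments, 19.2 when scaled, so it did not meet the depth-scaled level. Nfix, a nuclear factor I gene of the bulge list, held 3 members that all met the depth-scaled level, and 3 mirrored sites. The first Nfix member had folds of 6.40 in BU, 4.49 in HG and 4.04 in sbTAC. The next, 766 bp from a bTAC peak, had 2.86, 3.93 and 4.08, and the last 2.15, 2.61 and 2.25.

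In the BMP pathway, 16 of 310 sites were members (5.16%, 2.98 to 8.25). Bmp7, a ligand gene, held 5 of 30, and all met the depth-scaled level. Only 1 lay within 20 kb of the gene, and 3 were counted with the stricter peaks and 2 with strong peaks. The strongest by sbTAC fold, 28307 bp from the gene, had 5.63 in BU and 8.93 in sbTAC with no HG peak, and the one with the highest HG coverage had 3.78, 7.22 and 4.03 in BU, HG and sbTAC. Each Bmp7 member lay within 1259 to 2698 bp of a bTAC peak. The ligand genes Bmp2 and Bmp4 held 2 and 1, the effector genes Smad1 and Smad4 held 2 and 1, Smad7, an inhibitor gene, held 2, and Bmpr2 (a receptor), Nog (an antagonist) and Id2 (a target) held 1 each.

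In the WNT pathway, 32 of 636 sites were members (5.03%, 3.47 to 7.03), at 17 of 34 genes. Among ligand genes Wnt7b held 4 of 27, and Wnt3 and Wnt4 held 1 each. Lgr6, a receptor gene for R-spondins, held 4 of 24, all inside the gene, and none met the depth-scaled level. Tcf7l2, a nuclear effector gene, held 5 of 58, of which 2 met the depth-scaled level. The strongest by BU and HG fold, 8404 bp from the gene, had 11.7 in BU, 10.5 in HG and 4.08 in sbTAC. It did not meet that level, with 18.7 scaled fragments in sbTAC. Nkd1, an inhibitor gene, held 3 of 23, and the one farthest from the gene, at 49.8 kb, had 14.3, 9.20 and 7.64. Hedgehog genes had 12 of 249 (4.82%), among them the effectors Gli3 with 4 of 55 and Gli2 with 3 of 59. The depth-scaled level was met by 1 Gli3 member and 3 Gli2 members.

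Notch genes had 7 of 208 (3.37%), TGF-beta genes 7 of 236 (2.97%), cell cycle genes 6 of 168 (3.57%) and genes of cell cycle inhibitors and quiescence 10 of 225 (4.44%). Rbpj, the nuclear effector gene of Notch signalling, held 3 of 25. For each of these lists and those of the BMP, WNT and hedgehog pathways, the interval included 3.71%.

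Markers of other cells in skin were set beside these. Melanocyte genes had 6 of 80 (7.50%, 2.80 to 15.6), 3 of them at Mitf, and 1 of the 6 met the depth-scaled level. Genes expressed in most tissues had 5 of 68 (7.35%), 3 of them at Ywhaz. Dermal genes had 1 of 74, endothelial genes 1 of 101, Merkel cell genes 1 of 43, sebaceous gland genes 2 of 61 and immune genes 0 of 29, a count that allows a share of up to 11.9% by the exact interval. Whether other cells in the sorted populations contributed to the members was not tested.

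Hairpins of 6 miRNAs were overlapped by members: Mir1905, Mir761, Mir7660, Mir132, Mir3074-1 and Mir24-1, of which the last pair share 1 site. Hairpins lay in 138 sites in all, and the 5 that were members make up 3.62% of these, close to the 3.59% over all sites. At Mir132, folds were 2.95 in BU, 4.01 in HG and 2.96 in sbTAC, and the depth-scaled level was met. The site of Mir24-1 had 3.29 in BU and 1.75 in sbTAC, where the lowest sbTAC fold of any member was 1.60.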

How the data were processed

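The authors sequenced ATAC-seq libraries as 50-base read pairs and deposited 1 peak list per population. Bowtie2 2.2.9, Picard, MACS2 and mm10 were used, per the submitters' processing notes. Peaks were called with MACS 2.1.1.20160309 on pooled paired-end fragments without a control library at a q-value cutoff of 0.05, per the file headers. Whether read ends were shifted is not stated in those sources. For each peak the authors' caller gave the length, the summit coverage (signal, not scaled for depth), a −log10 p-value and q-value, and the fold enrichment. Names of both −log10 columns are damaged in the deposited files, and they were told apart by the caller's column order. These scores were used to describe, rank or filter within a list, except where coverage was scaled by total fragments.

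Python 3.11.15, pandas 2.3.3 and scipy 1.17.1 were used. Merging, classes and counts were tested on simulated peaks. Genes came from RefSeq GRCm38.p6. Starts came from its promoter table (17274 of 21631 protein-coding genes), with both gene ends used for the others; chromosome 18 has no entry. Members and gene lists were chosen with earlier results of these data known.

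Named are the 15 genes with the most members, the 12 members with the highest lowest percentile of fold enrichment, list genes with 3 or more members, the 10 genes (6 or more sites) with the largest member share and up to 12 starts that met the depth-scaled level. Alternatives were another merging, stricter peaks, equal list sizes, depth scaling, a 1 kb guard and a 20 kb gene distance. One of the members named by rank is not reported here. No sample-level values were used.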

Additional observations from a re-analysis of the deposited data

How the results depend on the processing

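No paired analysis was possible because each peak list pools both samples of a population, and for the same reason no sample could be left out in turn. The 4132 members became 2247 with peaks of a −log10 q-value of at least 10, 2226 with absence scaled for depth and 1412 with strong peaks where present but any peak for absence, a setting chosen after the data were seen. They stayed within 1.5 times under the other 5 alternatives, from 3636 to 5056. The share with both telogen peaks, 55.2%, was 50.8% with the stricter peaks, 59.7% with depth scaling, 61.6% with equal numbers of peaks and 73.0% with strong peaks. The share within 1 kb of a start, 6.97%, was 5.58% with peaks up to 500 bp apart merged, 9.84% with stricter peaks, 7.95% with depth scaling, 11.6% with equal numbers, 5.25% with the 1 kb guard and 5.88% with strong peaks. Mirrored sites per member, 2.38, were 3.86, 4.35, 1.71, 2.54 and 3.83 with stricter peaks, depth scaling, equal numbers, the guard and strong peaks. The epidermal differentiation list, 8.24% against 3.71% over all assigned sites, was 14.2% against 5.45% with equal numbers and 2.35% against 1.26% with strong peaks. The causes were not tested. Of 37 genes named by count or share, 28 moved by over 1.5 times with stricter peaks, 16 with depth scaling, 11 with equal numbers, 6 with a 20 kb gene distance, 3 with the guard, 1 with wider merging, 32 with strong peaks and 0 with 50% overlap or without chromosome X. Hair germ absence is limited by 11053351 fragments, the fewest of the 4 libraries.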
